A study of Mus musculus with 39 samples.

Results

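Solute carriers are membrane proteins that move nutrients, ions and metabolites across the cell surface and the membranes of mitochondria, lysosomes and other compartments. The genes described here are those of the deposited count table whose symbol has the form Slc, a family number, the letter a and a member number, without Slc2a1, Slc37a4, Slc25a15, Slc10a1, Slc34a2, Slc40a1, Slc39a14 and Slc1a2. This gave 198 genes of the 11873 gene symbols in the table, and 206 matched before the 8 named genes were left out. Of the 198 genes, 152 had enough counts to be tested and 46 did not. The table holds RNA sequencing of mouse liver from 36 libraries in 12 groups of 3, given by genotype, circadian time and oxygen. HLKO mice carried Alb-Cre and floxed Hif1a, BLKO mice carried Alb-Cre and floxed Bmal1, and the controls (Alb) carried Alb-Cre alone, so that Cre is present in every group and is driven by the promoter of albumin, a hepatocyte gene. All were C57BL/6 mice of 3 to 5 months that had lived for 2 weeks in 12 h of light and 12 h of dark with free access to food. On the day of the experiment the lights stayed off, and the mice breathed 6% or 21% oxygen for 4 h, ending at circadian time 20 (groups named CT16) or 8 (groups named CT4). The 3 mice lacking Hif1a and Bmal1 together are not analysed here.

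Hepatocytes take up amino acids, sugars, fatty acids, bile acids, metals and drugs from the blood through carriers of many families, and release glucose, ketone bodies and other products through others. The SLC25 family lies in the inner mitochondrial membrane and exchanges nucleotides, amino acids, citrate, phosphate and carnitine esters between cytosol and mitochondrial matrix. HIF1A is the oxygen-regulated subunit of a transcription factor that acts in hypoxia, and BMAL1 is a core transcription factor of the circadian clock that binds E-boxes, whose core letters are CACGTG.

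Slc38a2, Slc25a47 and Slc20a1 passed the test upward in each of the 6 comparisons of 6% with 21% oxygen, and Slc25a33 and Slc7a2 in 5 of them. The promoter windows of those found in the RefSeq table are shown because these solute carriers were called upward most often. How many of all tested genes were called upward as often was not counted. Each window has 300 bases, 250 before to 50 after the RefSeq start, in GRCm38.p6. They lie at chr15:96699679-96699978 (minus strand) for Slc38a2, chr12:108850879-108851178 (plus strand) for Slc25a47, chr2:129198523-129198822 (plus strand) for Slc20a1 and chr4:149774218-149774517 (minus strand) for Slc25a33. All are written 5′ to 3′ on the gene's strand, and capitals mark CACGTG (the E-box) and AGGTCA or its reverse complement TGACCT (a binding motif of nuclear receptors).
Slc38a2: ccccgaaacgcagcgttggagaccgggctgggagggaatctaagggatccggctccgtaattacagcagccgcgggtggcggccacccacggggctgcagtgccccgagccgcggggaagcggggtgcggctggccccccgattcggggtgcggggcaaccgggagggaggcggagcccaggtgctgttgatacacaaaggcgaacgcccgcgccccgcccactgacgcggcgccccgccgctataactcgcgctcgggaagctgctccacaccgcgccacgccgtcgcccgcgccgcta
Slc25a47: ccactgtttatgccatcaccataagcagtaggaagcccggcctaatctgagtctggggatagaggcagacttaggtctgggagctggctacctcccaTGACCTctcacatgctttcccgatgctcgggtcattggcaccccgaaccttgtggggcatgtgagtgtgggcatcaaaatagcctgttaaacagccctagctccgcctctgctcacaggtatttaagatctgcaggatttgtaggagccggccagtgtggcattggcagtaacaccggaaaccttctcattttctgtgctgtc
Slc20a1: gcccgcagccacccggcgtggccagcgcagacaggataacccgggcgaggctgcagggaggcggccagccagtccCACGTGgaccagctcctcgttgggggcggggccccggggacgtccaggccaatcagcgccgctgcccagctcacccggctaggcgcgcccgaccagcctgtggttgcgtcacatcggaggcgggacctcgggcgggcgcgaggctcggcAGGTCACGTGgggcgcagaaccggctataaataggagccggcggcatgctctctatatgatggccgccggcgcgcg
Slc25a33: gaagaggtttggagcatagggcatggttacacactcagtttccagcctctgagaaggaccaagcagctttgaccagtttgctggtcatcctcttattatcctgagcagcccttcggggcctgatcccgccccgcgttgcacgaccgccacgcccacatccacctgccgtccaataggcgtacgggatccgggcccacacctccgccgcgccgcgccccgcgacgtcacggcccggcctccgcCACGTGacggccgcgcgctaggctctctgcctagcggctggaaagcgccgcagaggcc
The windows were searched on both strands for CACGTG, for ACGTG (1 form of the core of the hypoxia response element, which every CACGTG contains), for TTATGNAA (the D-box), for AGGTCA, and for the glucocorticoid response element. Other forms of the hypoxia response element core were not searched. The Slc20a1 window holds CACGTG 2 times, and the copy nearer the start overlaps an AGGTCA. The Slc25a33 window holds CACGTG 1 time and the Slc25a47 window holds TGACCT 1 time. In the Slc38a2 window none of the 5 motifs was found in the forms searched, which does not exclude another form of the hypoxia response element core. CACGTG was present in 7.15% of the 32851 promoter windows of the table and in 32 of the 202 windows of solute carriers (15.8%). ACGTG was present in 19.6% of all windows and 29.7% of solute carrier windows, AGGTCA in 16.3% and 15.8%, TTATGNAA in 3.38% and 2.97%, and the glucocorticoid element in 0.475% and 0.495%. RefSeq gives Slc20a1 a further start, whose window is not printed. Gene positions in the text are those of GENCODE M21 on GRCm38, where Slc25a47 begins at base 108836046, upstream of the RefSeq start used for its window. These are matches of letters and describe the windows only.

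Library totals ran from 1717589 to 5196957 counts, and the 198 solute carriers took 1.11% to 1.67% of them. Values are given in CPM (counts scaled to library size with TMM factors) for each library in the order A, B and C, or as mean ± SD of 3 libraries, and changes as log2 fold changes ± SE. A gene is called when the adjusted p of edgeR's quasi-likelihood test, corrected over the 9483 tested genes, is under 0.05, and "rose" and "fell" are used for called genes only. Tests are two-sided, and since the labels do not say how the libraries of a group are related beyond being separate samples, p-values measure the spread between them. Set against the label liver, the hepatocyte genes Alb, Apoa1, Ttr, Fgb and Serpinc1 were high in all 36 libraries, and Alb itself ran from 20100 to 56600 CPM. Genes of other cells were detected too. Among listed genes of stellate cells and fibroblasts, Ecm1, Dcn and Colec11 had medians of 126, 74.4 and 36.4 CPM and Col1a1 had 1.15 CPM. Of those of the bile duct, Spp1 and Sox9 had medians of 43.3 and 8.71 CPM and Epcam had 0.569 CPM, and of those of fat, Cidec had 3.43 CPM and Adipoq 0 CPM. At 21% oxygen Hif1a was at 3.31 to 8.23 CPM in HLKO and 4.12 to 6.84 CPM in Alb at CT16, and at 3.35 to 7.92 CPM in HLKO and 5.48 to 9.88 CPM in Alb at CT4, with overlap at both times. Arntl, the gene of BMAL1, was at 10.5 to 13.9 CPM in BLKO and 17.5 to 22.1 CPM in Alb at CT16, and at 6.07 to 6.95 CPM in BLKO and 2.44 to 6.09 CPM in Alb at CT4, where the groups overlapped. Which exons the floxed alleles remove is not given in the sources used here, and counts over a whole gene do not check such a deletion. Dbp, an output gene of the clock, was at 262 to 338 CPM in HLKO, 9.81 to 12.8 CPM in BLKO and 152 to 200 CPM in Alb at CT4 and 21% oxygen. In bulk liver, fewer cells of a type and less RNA per cell cannot be told apart. Alb CT4 21% A and Alb CT16 6% A stood apart from the other libraries of their groups, with a chi-square per degree of freedom of 21.5 and 19.7 against B and C (5.33 between these) and of 28.1 and 21.4 (3.92 between these). The hypoxia comparison of Alb at CT16 gave 30 called solute carriers without Alb CT16 6% A and 31 with it. At CT4 it gave 21 without Alb CT4 21% A and 22 with it.

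By mean level per kilobase of exon over the 12 groups, Slc27a5, the bile acid and very long chain acyl-CoA ligase of liver, came first at 482.4 CPM per kilobase. It was followed by the liver mitochondrial carrier Slc25a47 at 430.6, the adenine nucleotide translocase Slc25a5 at 408.2, the glutamine carrier Slc38a3 at 339.2 and Slc25a39, the mitochondrial glutathione carrier, at 293.3 CPM per kilobase. Lower levels were found for the citrate carrier Slc25a1 (223.4) and the fatty acid transporter Slc27a2 (168.1 CPM per kilobase). The per-length scale assumes reads spread over the transcript, which the sources used here do not state, and Slc25a5 may share reads with its paralog Slc25a4. The median of the 198 genes was 2.01 CPM per kilobase. Abundant carriers varied unequally: Slc27a5 lay between 969.3 and 1504 CPM in all 36 libraries, while Slc25a47 ran from 345.7 to 2719 CPM.

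Under 6% oxygen solute carriers rose more often than they fell, in every genotype and at both times. In HLKO livers edgeR called 19 of the 152 tested solute carriers at CT16 (14 higher, 5 lower), 12.5% against 9.74% of all tested genes (5.4% higher, 4.34% lower). At CT4 it called 34 in HLKO (27 higher, 7 lower), 22.4% against 14.4% of all tested genes (7.71% higher, 6.72% lower). In BLKO livers it called 12 at CT16 (9 higher, 3 lower), 7.89% against 9.4% of all tested genes (4.77% higher, 4.63% lower). The BLKO count at CT4 was 13 (10 higher, 3 lower), 8.55% against 4.63% of all tested genes (2.57% higher, 2.06% lower). In Alb livers it called 31 at CT16 (25 higher, 6 lower), 20.4% against 13.5% of all tested genes (6.72% higher, 6.76% lower). The Alb count at CT4 was 22 (16 higher, 6 lower), 14.5% against 9.16% of all tested genes (5.28% higher, 3.88% lower). The median change of the tested solute carriers lay between 0.03 and 0.12 in the 6 comparisons, beside -0.02 to 0.03 for all tested genes. The CT16 share of BLKO was below the share of all genes. Some counts depended on single libraries. For HLKO at CT16 the count was 11 with HLKO CT16 21% A left out. For BLKO it was 6 with any 1 of BLKO CT16 6% B and C left out and 7 with BLKO CT16 21% A left out at CT16, and 6 with BLKO CT4 6% A left out and 8 with BLKO CT4 21% B left out at CT4. For Alb it was 17 with Alb CT16 21% A left out and 18 with Alb CT16 21% C left out at CT16, and 13 with Alb CT4 6% C left out at CT4. Over the 6 comparisons, which share no libraries, 67 solute carriers were called at least once (44.1% against 32.5% of all tested genes). Of these, 43 were called only upward (28.3% against 16.7%), 17 only downward (11.2% against 14.6%) and 7 in both directions (4.61% against 1.22%).

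**Figure D1:**
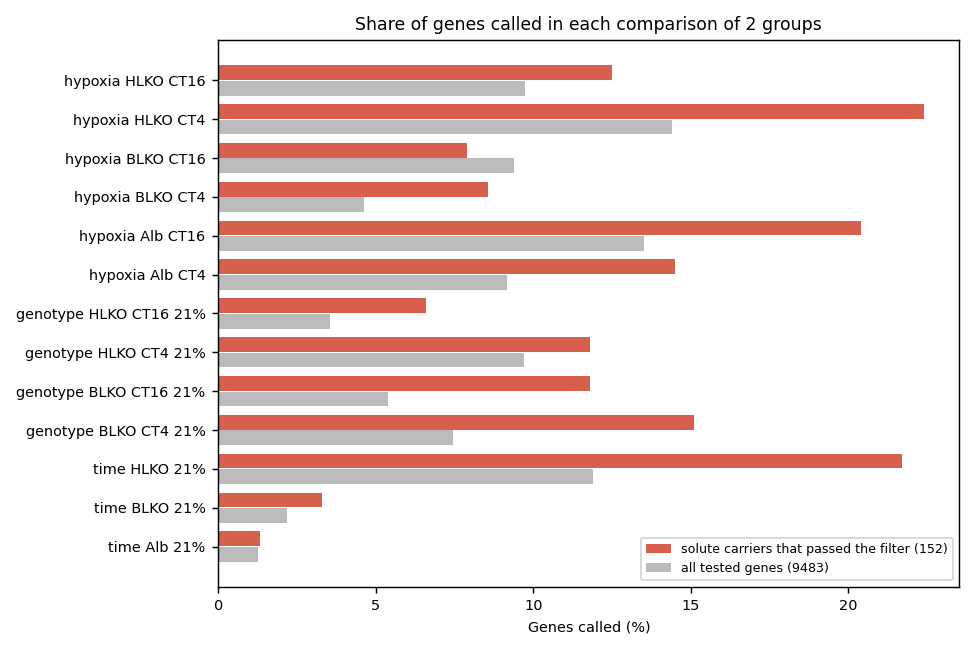
Share of genes called by edgeR (horizontal axis, percent) in the 13 comparisons of 2 groups, for the 152 tested solute carriers (red) and all 9483 tested genes (grey). The red bar is the longer one in every row except hypoxia in BLKO at CT16 (7.89% against 9.4%).

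Slc38a2 (chromosome 15, 96687392 to 96699730), the sodium-coupled neutral amino acid transporter SNAT2, rose under 6% oxygen in all genotypes. In HLKO livers it was at 272, 374 and 252 CPM under 6% oxygen against 186, 201 and 177 CPM under 21% at CT16 (0.67 ± 0.17, adjusted p = 0.0107). At CT4 the HLKO values were 581, 523 and 461 CPM under 6% and 124, 134 and 104 CPM under 21% oxygen (2.11 ± 0.18, adjusted p = 2.9e-10). The HLKO libraries of the oxygen groups did not overlap at either time, but the gap was narrow at CT16, where the call was lost without HLKO CT16 6% B (adjusted p = 0.0871). BLKO livers had 286, 282 and 284 CPM under 6% and 81.7, 99.3 and 90.9 CPM under 21% oxygen at CT16 (1.65 ± 0.18). They had 329, 297 and 237 CPM against 151, 118 and 109 CPM at CT4 (1.19 ± 0.18, adjusted p = 5.97e-05). Again no library under 6% oxygen was as low as any under 21%, in any genotype. Alb livers had 432, 368 and 446 CPM under 6% and 89.7, 93.9 and 121 CPM under 21% oxygen at CT16 (2.03 ± 0.18, adjusted p = 9.27e-10). At CT4 they had 377, 351 and 429.7 CPM against 188, 119 and 103 CPM (1.5 ± 0.18, adjusted p = 3.56e-07). The highest 21% library there, A, is the one that stood apart from its group. Over all genotypes and times the 18 libraries under 6% oxygen lay between 237.3 and 580.6 CPM and the 18 under 21% between 81.7 and 200.8 CPM.

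Slc25a47 (chromosome 12, 108836046 to 108856815), a liver-enriched carrier of the inner mitochondrial membrane, was the most abundant gene that rose in all 6 comparisons. In HLKO livers its values were 2498, 2477 and 2373 CPM under 6% and 1069, 1035 and 1095 CPM under 21% oxygen at CT16 (1.2 ± 0.13, adjusted p = 1.79e-07), and 2141, 1866 and 2719 CPM against 678, 708 and 695 CPM at CT4 (1.69 ± 0.13). In BLKO livers they were 1587, 1191 and 1481 CPM under 6% and 369, 346 and 375 CPM under 21% oxygen at CT16 (1.97 ± 0.13, adjusted p = 8.41e-12), and 1271, 1417 and 1891 CPM against 673, 639 and 712 CPM at CT4 (1.18 ± 0.13). The BLKO libraries at CT16 under 21% oxygen were the lowest of the 36. In Alb livers Slc25a47 was at 1742, 1722 and 1749 CPM under 6% and 611, 749.6 and 736 CPM under 21% oxygen at CT16 (1.31 ± 0.13), and at 1771, 1986 and 1625 CPM against 679, 802 and 792 CPM at CT4 (1.24 ± 0.13, adjusted p = 6.46e-08). The call held without any single library in all 6 comparisons, and every 6% library lay above every 21% library, over genotypes and times. Slc20a1 (chromosome 2, 129198764 to 129211616), the sodium-phosphate cotransporter PiT1, was also separated in all 36 libraries. Under 6% oxygen Slc20a1 averaged 41.7 ± 4.09 CPM in HLKO, 34.3 ± 5.69 CPM in BLKO and 33.4 ± 11.4 CPM in Alb livers at CT16, against 9.19 ± 1.13, 10.4 ± 0.438 and 8.82 ± 1.91 CPM in the same genotypes under 21%. At CT4 it averaged 34.8 ± 2.81 CPM in HLKO, 25 ± 2.96 CPM in BLKO and 30.2 ± 3.34 CPM in Alb livers under 6% oxygen, against 12.7 ± 1.52, 12.3 ± 0.961 and 14.7 ± 1.38 CPM under 21%. Its increase was 2.17 ± 0.20, 1.71 ± 0.18 and 1.97 ± 0.20 in HLKO, BLKO and Alb livers at CT16 and 1.44 ± 0.19, 1.02 ± 0.20 and 1.06 ± 0.19 at CT4, with a highest adjusted p of 0.00154 in BLKO at CT4, and none of these calls was lost without a single library.

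**Figure D2:**
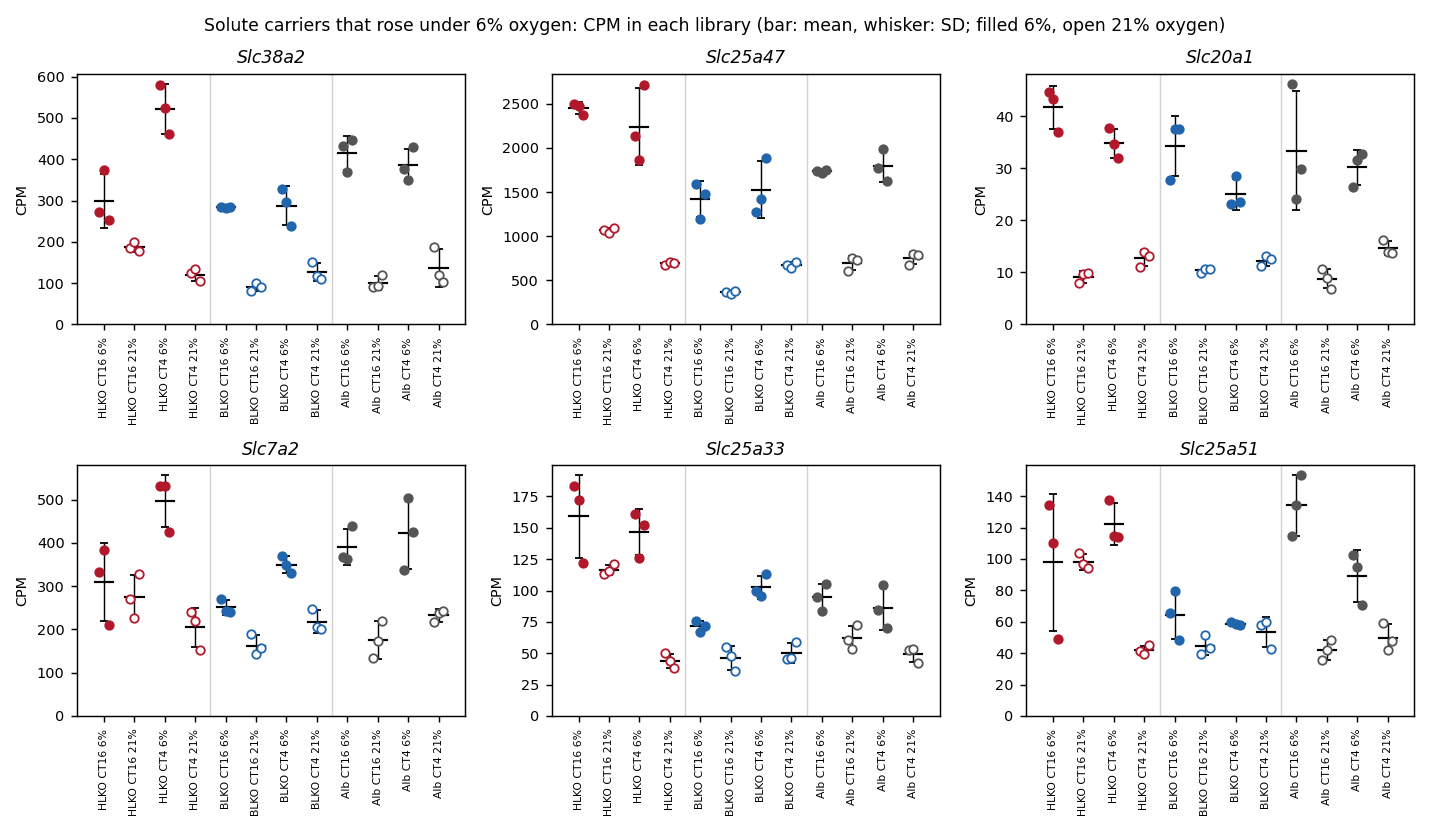
CPM (vertical axes) of 6 solute carriers in each of the 36 libraries, by group, with the mean (bar) and SD (whisker); filled points breathed 6% and open points 21% oxygen. For Slc38a2, Slc25a47 and Slc20a1 every filled point lies above every open point, while Slc25a51 in HLKO at CT16 shows overlap, with 49.3 CPM in 1 library under 6% oxygen.

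Amino acid and peptide carriers were called upward more often than downward in all 6 comparisons. Of the 28 that were tested out of 34, 4 rose and 0 fell in HLKO at CT16, 5 rose and 2 fell in HLKO at CT4, 3 rose and 0 fell in BLKO at CT16, 4 rose and 0 fell in BLKO at CT4, 6 rose and 0 fell in Alb at CT16, and 7 rose and 1 fell in Alb at CT4. Their median change ran from 0.07 in HLKO at CT4 to 0.38 in Alb at CT16, where all tested genes had medians of 0.03 and 0.01. Of all tested genes, 5.4% were called higher and 4.34% lower in HLKO at CT16, and 7.71% and 6.72% at CT4. In BLKO these shares were 4.77% and 4.63% at CT16 and 2.57% and 2.06% at CT4. In Alb they were 6.72% and 6.76% at CT16 and 5.28% and 3.88% at CT4. All tested genes were thus also called upward more often than downward, except in Alb at CT16. Slc7a2 (chromosome 8, 40862396 to 40922308), the cationic amino acid transporter CAT2 that carries arginine and lysine, was at 531, 532 and 426 CPM under 6% and 239.9, 220.2 and 153 CPM under 21% oxygen in HLKO at CT4 (1.28 ± 0.19, adjusted p = 1.07e-05). In Alb livers it was at 368, 364 and 438 CPM under 6% and 133, 174 and 219.9 CPM under 21% oxygen at CT16 (1.15 ± 0.19), and at 422 ± 83.7 against 232 ± 14.3 CPM at CT4 (0.86 ± 0.19, adjusted p = 0.00258). The libraries of the oxygen groups did not overlap in these comparisons. In BLKO livers Slc7a2 rose by 0.63 ± 0.19 at CT16 and rose by 0.68 ± 0.19 at CT4. The Slc7a2 call in BLKO at CT16 was lost without BLKO CT16 21% B and C and BLKO CT16 6% A, B and C (highest adjusted p = 0.137). The Slc7a2 call in BLKO at CT4 was lost without BLKO CT4 21% B and C and BLKO CT4 6% A, B and C (highest adjusted p = 0.126). In HLKO at CT16 it was at 333, 384 and 210.5 CPM under 6% and 270, 225 and 328 CPM under 21% oxygen, with overlapping libraries (0.17 ± 0.19, adjusted p = 0.632).

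Other amino acid carriers moved in fewer groups. Slc1a4 (chromosome 11, 20302180 to 20332713), the neutral amino acid exchanger ASCT1, was at 11.4, 9.06 and 5.61 CPM under 6% and 3.83, 1.9 and 1.98 CPM under 21% oxygen in HLKO at CT4 (1.87 ± 0.43, adjusted p = 0.00299). In Alb livers it rose by 1.87 ± 0.43 at CT16 and rose by 1.55 ± 0.42 at CT4. The Slc1a4 call in Alb at CT16 was lost without Alb CT16 21% C (highest adjusted p = 0.0509). The Slc1a4 call in Alb at CT4 was lost without Alb CT4 21% C and Alb CT4 6% C (highest adjusted p = 0.15). Slc7a8, the light subunit LAT2 of a large neutral amino acid exchanger, was at 5.19, 3.04 and 8.28 CPM under 6% and 0.706, 0.914 and 1.83 CPM under 21% oxygen in Alb at CT4 (2.27 ± 0.42, adjusted p = 0.000415). The Alb values of Slc7a8 at CT16 were 1.02, 1.72 and 1.19 CPM under 6% and 2.4, 2.62 and 1.82 CPM under 21% oxygen (-0.80 ± 0.46, adjusted p = 0.273). The response of Slc7a8 in Alb was thus higher at CT4, with a difference of -3.07 ± 0.63 between the CT16 and CT4 responses (adjusted p = 0.0284). The Slc7a8 call was lost without Alb CT4 21% A and B, Alb CT4 6% C, Alb CT16 21% A, B and C and Alb CT16 6% A and C (highest adjusted p = 0.0944). The taurine transporter Slc6a6 rose by 0.80 ± 0.17 in BLKO at CT4 (86.4 ± 14.1 CPM under 6% and 49.7 ± 4.75 CPM under 21% oxygen, adjusted p = 0.00256), a call that held without each library. Slc6a6 was called upward in 4 of the 6 hypoxia comparisons, HLKO at CT16 among them, and its change was positive in all 6. In HLKO at CT4 Slc6a6 rose by 0.63 ± 0.16. The Slc6a6 call in HLKO at CT4 was lost without HLKO CT4 21% C (highest adjusted p = 0.0775). Slc38a4, a further sodium-coupled neutral amino acid transporter, rose by 1.28 ± 0.27 in HLKO at CT4 (158 ± 34.4 CPM under 6% and 65.3 ± 7.08 CPM under 21% oxygen, adjusted p = 0.00124). Slc43a1, the branched-chain amino acid transporter LAT3, fell by 1.68 ± 0.36 in the same comparison (4.78, 3.09 and 3.2 CPM under 6% and 19.6, 8.55 and 9.57 CPM under 21% oxygen, adjusted p = 0.00139). The glycine transporter Slc6a9 fell by 0.72 ± 0.20 in Alb at CT4 (adjusted p = 0.018). The Slc6a9 call in Alb at CT4 was lost without Alb CT4 21% C and Alb CT4 6% C (highest adjusted p = 0.0856).

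The Alb comparison at CT4 also differed in markers of other cells. Of 10 tested Kupffer cell and macrophage markers out of 11 listed, 7 were higher and 0 lower under 6% oxygen (median 1.14), and their summed level was 356 to 668 CPM under 6% and 186 to 328 CPM under 21% oxygen. Among 9 endothelial markers 4 were higher and 0 lower (median 0.59), with sums of 215 to 242 CPM under 6% and 122 to 161 CPM under 21% oxygen. Timd4, a Kupffer cell marker, was at a median of 0.62 CPM over all libraries. Adgre1 and Vsig4 were at 0 in their lowest library, and the other markers of both lists had counts in all 36 libraries. In Alb at CT16 1 Kupffer cell marker, the neutrophil marker S100a9 and the fat marker Cidec were higher. In the HLKO and BLKO hypoxia comparisons 0 of 10 Kupffer cell and 0 of 9 endothelial markers were called. Summed levels differed without overlap there too. In BLKO at CT4 the endothelial sum was 211 to 236 CPM under 6% and 168 to 191 CPM under 21% oxygen. In BLKO at CT16 the sum of 5 hepatocyte genes was 57500 to 59600 CPM under 6% and 68400 to 69800 CPM under 21% oxygen, with 1 of the 5 called lower. In HLKO at CT16 the stellate cell and fibroblast sum was 317 to 345 CPM under 6% and 369 to 438 CPM under 21% oxygen. The bile duct sum was 46.5 to 54.1 CPM under 6% and 35 to 40.9 CPM under 21% oxygen in HLKO at CT4, and 56.5 to 96.3 CPM under 6% and 46.4 to 54.3 CPM under 21% oxygen in Alb at CT16. The part of these cells in the changes of the carriers was not tested.

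Mitochondrial carriers made up 36 of the 198 genes, and 30 were tested. Under 6% oxygen 2 rose and 1 fell in HLKO at CT16, 9 rose and 1 fell in HLKO at CT4, 2 rose and 1 fell in BLKO at CT16, 4 rose and 2 fell in BLKO at CT4, 9 rose and 4 fell in Alb at CT16, and 4 rose and 1 fell in Alb at CT4. Their median change lay between -0.03 and 0.24, beside -0.02 to 0.03 for all tested genes. Of all tested genes, 2.57% (BLKO at CT4) to 7.71% (HLKO at CT4) were called higher in these comparisons. Between 2.06% (BLKO at CT4) and 6.76% (Alb at CT16) were called lower. Slc25a33 (chromosome 4, 149744036 to 149774277), the pyrimidine nucleotide carrier of mitochondria, was at 161, 126 and 152 CPM under 6% and 49.8, 44 and 38.6 CPM under 21% oxygen in HLKO at CT4 (1.74 ± 0.17, adjusted p = 6.94e-09). In BLKO at CT4 it was at 99.9, 95.3 and 113 CPM under 6% and 45.3, 45.8 and 59 CPM under 21% oxygen (1.03 ± 0.17), and in Alb at CT4 at 84.4, 104 and 69.8 CPM against 52.2, 53 and 42 CPM (0.81 ± 0.17, adjusted p = 0.00172). No libraries overlapped at CT4. At CT16 Slc25a33 rose by 0.62 ± 0.17 in BLKO and rose by 0.60 ± 0.17 in Alb. The Slc25a33 call in BLKO at CT16 was lost without BLKO CT16 21% C and BLKO CT16 6% A (highest adjusted p = 0.107). The Slc25a33 call in Alb at CT16 was lost without Alb CT16 21% B and Alb CT16 6% C (highest adjusted p = 0.0728). In HLKO at CT16 it was at 183, 172 and 122 CPM under 6% and 113, 116 and 121 CPM under 21% oxygen (0.45 ± 0.16, adjusted p = 0.074). Slc25a51 (chromosome 4, 45395923 to 45408766), which carries NAD+ into mitochondria, was at 138, 115 and 114 CPM under 6% and 41.7, 39.3 and 44.9 CPM under 21% oxygen in HLKO at CT4 (1.54 ± 0.22). In Alb at CT16 it was at 115, 134 and 154 CPM under 6% and 35.7, 41.9 and 48.5 CPM under 21% oxygen (1.66 ± 0.22, adjusted p = 2.18e-06), and in Alb at CT4 it rose by 0.84 ± 0.22. The Slc25a51 call in Alb at CT4 was lost without Alb CT4 21% B and Alb CT4 6% A and B (highest adjusted p = 0.0935). In BLKO livers Slc25a51 was at 64.5 ± 15.5 CPM under 6% and 44.8 ± 6.12 CPM under 21% oxygen at CT16 (0.54 ± 0.22, adjusted p = 0.125), and at 58.8 ± 0.884 CPM against 53.4 ± 9.36 CPM at CT4 (0.15 ± 0.23, adjusted p = 0.837).

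Slc25a25, a calcium-regulated ATP-magnesium and phosphate carrier, was at 322, 339.6 and 619 CPM under 6% and 128, 96 and 171 CPM under 21% oxygen in HLKO at CT4 (1.69 ± 0.31, adjusted p = 0.000237). It also rose by 1.24 ± 0.30 in HLKO at CT16. The Slc25a25 call in HLKO at CT16 was lost without HLKO CT16 6% C (highest adjusted p = 0.101). In BLKO at CT4 Slc25a25 rose by 1.32 ± 0.31 and in Alb at CT16 it rose by 1.16 ± 0.31. The Slc25a25 call in BLKO at CT4 was lost without BLKO CT4 21% B and BLKO CT4 6% A (highest adjusted p = 0.0826). The Slc25a25 call in Alb at CT16 was lost without Alb CT16 21% A (highest adjusted p = 0.0515). In Alb at CT4 its values overlapped, with 310.2, 326 and 440.5 CPM under 6% and 316, 142 and 116 CPM under 21% oxygen (0.91 ± 0.30, adjusted p = 0.0549), the high 21% library again being A. The aspartate-glutamate carrier Slc25a12 rose by 0.94 ± 0.21 in Alb at CT16 (20.8 ± 3.23 CPM under 6% and 10.4 ± 2.87 CPM under 21% oxygen, adjusted p = 0.00256). The glycine carrier Slc25a38, needed for heme synthesis, fell by 0.72 ± 0.15 in HLKO at CT4 (adjusted p = 0.00127) and fell by 0.80 ± 0.15 in Alb at CT16 (adjusted p = 0.000416).

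Of 26 carriers of inorganic ions and phosphate 14 were tested, and 0 fell in any hypoxia comparison while 1 to 4 rose. Besides Slc20a1 these were mainly its relative Slc20a2 and the sulfate and oxalate exchanger Slc26a1. Of all tested genes, 2.57% to 7.71% were called higher and 2.06% to 6.76% lower in the hypoxia comparisons. Slc26a1 (chromosome 5, 108669878 to 108675569) was at 382, 416 and 412 CPM under 6% and 252, 222 and 280.4 CPM under 21% oxygen in HLKO at CT16 (0.68 ± 0.12, adjusted p = 0.000167) and rose by 0.51 ± 0.12 in Alb at CT16 (adjusted p = 0.00255). It rose by 0.40 ± 0.12 in HLKO at CT4 and rose by 0.54 ± 0.12 in BLKO at CT4. The Slc26a1 call in HLKO at CT4 was lost without HLKO CT4 21% B and C and HLKO CT4 6% B (highest adjusted p = 0.105). The Slc26a1 call in BLKO at CT4 was lost without BLKO CT4 6% A (highest adjusted p = 0.0572). Exons of Slc26a1 overlap Idua, and since the strand of counting is not given, reads of these genes cannot be told apart. Slc20a2 (PiT2) rose by 0.49 ± 0.12 in Alb at CT4 (88.6, 87.5 and 81.9 CPM under 6% and 59.3, 57.9 and 66.1 CPM under 21% oxygen, adjusted p = 0.00592), and its exons overlap Smim19. This Slc20a2 call was lost when only the groups compared entered the fit. The sodium bicarbonate cotransporter Slc4a4 rose by 0.88 ± 0.23 in HLKO at CT4. The Slc4a4 call in HLKO at CT4 was lost without HLKO CT4 21% B (highest adjusted p = 0.0514). Of 22 tested metal carriers out of 26, 1 rose and 4 fell in HLKO at CT4, and 0 or 1 was called in each direction in the other comparisons. In HLKO at CT4, 7.71% of all tested genes were called higher and 6.72% lower. There the metal carriers included 2 with large changes. The vesicular zinc transporter Slc30a3 fell by 2.58 ± 0.50 (0.624, 1.85 and 1.2 CPM under 6% and 6.7, 7.29 and 8.58 CPM under 21% oxygen, adjusted p = 0.000429), and Slc41a3, of the SLC41 magnesium transporter family, rose by 1.77 ± 0.40 (adjusted p = 0.0021). Outside HLKO at CT4 no group mean of Slc30a3 exceeded 3.259 CPM. Slc30a3 passed the count filter mainly through HLKO CT4 21%, where it was higher. Its p-value is therefore no separate support for a fall.

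Carriers of monocarboxylates, bile acids, citrate and fatty acids (16 tested of 22) showed 1 to 3 calls upward in 4 of the 6 hypoxia comparisons and 1 call downward each in HLKO (Slc27a2) and in BLKO (Slc16a5) at CT16. Of all tested genes, 2.57% to 7.71% were called higher and 2.06% to 6.76% lower in the 6 comparisons. Slc16a5, of the monocarboxylate transporter family SLC16, had 4 counts over BLKO CT16 6% and 45 over BLKO CT16 21% (adjusted p = 0.0143). It passed the count filter only through groups where it was higher, so this p-value is no separate support for a fall. The Slc16a5 call in BLKO at CT16 was lost without BLKO CT16 21% A and BLKO CT16 6% B (highest adjusted p = 0.136). Slc16a6, a monocarboxylate carrier that in zebrafish exports ketone bodies from hepatocytes, was at 13.2, 5.46 and 10.5 CPM under 6% and 1.24, 1.22 and 1.84 CPM under 21% oxygen in HLKO at CT16 (2.67 ± 0.58, adjusted p = 0.00267). In Alb at CT4 Slc16a6 was at 9.43, 10.3 and 14.8 CPM under 6% and 3.18, 3.35 and 1.22 CPM under 21% oxygen (2.19 ± 0.47, adjusted p = 0.00234). It rose by 1.25 ± 0.42 in HLKO at CT4 and rose by 1.53 ± 0.44 in Alb at CT16. The Slc16a6 call in HLKO at CT4 was lost without HLKO CT4 21% A, B and C and HLKO CT4 6% A and B (highest adjusted p = 0.222). The Slc16a6 call in Alb at CT16 was lost without Alb CT16 21% A and B and Alb CT16 6% A (highest adjusted p = 0.178). In BLKO livers it was at 9.3, 7.33 and 7.27 CPM under 6% and 2.58, 4.05 and 4.04 CPM under 21% oxygen at CT16 (1.2 ± 0.44, adjusted p = 0.0786). Exons of Slc16a6 overlap Amz2 and Arsg. Among the 9 tested sugar carriers the glucose transporter Slc2a2 (GLUT2), through which hepatocytes exchange glucose with the blood, was at 332, 233 and 229.8 CPM under 6% and 134, 184 and 176 CPM under 21% oxygen in Alb at CT16 (0.69 ± 0.18, adjusted p = 0.00856). The Slc2a2 call in Alb at CT16 was lost without Alb CT16 21% A and Alb CT16 6% A (highest adjusted p = 0.0824). Slc2a4 (GLUT4), the insulin-regulated glucose transporter of muscle and fat, had few reads: 69 counts over the HLKO CT4 6% libraries against 2 over HLKO CT4 21% (adjusted p = 0.000772), and 55 over Alb CT16 6% against 6 over Alb CT16 21% (adjusted p = 0.00564). Both 21% groups lay under the count minimum of 10, so Slc2a4 entered the test only through groups where it was higher. These p-values are therefore no separate support for a rise. The Slc2a4 call in Alb at CT16 was lost without Alb CT16 6% A (highest adjusted p = 0.0707). Of 16 tested organic ion and drug carriers, Slc22a15 had 49 counts over HLKO CT4 6% and 5 over HLKO CT4 21% (adjusted p = 0.000913). It too passed the filter only through groups other than HLKO CT4 21%. Slc22a23 rose by 0.80 ± 0.14 in HLKO at CT16 (71.5 ± 15.2 CPM under 6% and 41.2 ± 1.28 CPM under 21% oxygen, adjusted p = 0.000153). Slc22a30, an organic anion transporter whose reads may be shared with Slc22a28, fell by 1.26 ± 0.24 in Alb at CT4 (14.6, 16.7 and 12.8 CPM under 6% and 31.1, 43 and 30.2 CPM under 21% oxygen, adjusted p = 0.000683). It also fell by 0.87 ± 0.23 in BLKO at CT16 and fell by 0.80 ± 0.23 in Alb at CT16. The Slc22a30 call in BLKO at CT16 was lost without BLKO CT16 6% C (highest adjusted p = 0.0838). The Slc22a30 call in Alb at CT16 was lost without Alb CT16 21% A and C and Alb CT16 6% A and C (highest adjusted p = 0.129). Of the 10 tested carriers of vitamins, choline, urea, heme and amines, at most 2 were called in a comparison, and of the 7 tested nucleoside and nucleotide sugar carriers at most 1.

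In HLKO livers the response of solute carriers to 6% oxygen depended on the time of day. The difference between the responses (CT16 minus CT4) was called for 23 of 152 solute carriers, 7 positive and 16 negative (15.1% against 8.64% of all tested genes, 3.81% positive and 4.83% negative), and this count lay between 18 and 32 when single libraries were left out. In BLKO it was called for 2, both positive (1.32% against 0.833%, 0.496% positive and 0.337% negative) and in Alb for 1, negative (0.658% against 0.232%, 0.0527% positive and 0.179% negative). These were Slc25a22 (0.94 ± 0.21) and Slc25a47 (0.79 ± 0.18) in BLKO, and Slc7a8 in Alb. The BLKO count was 0 with any 1 of BLKO CT4 21% B, BLKO CT4 6% A, BLKO CT16 21% B and BLKO CT16 6% C left out and 1 with any 1 of BLKO CT4 21% A and C, BLKO CT4 6% B and C, BLKO CT16 21% A and C and BLKO CT16 6% A left out. The Alb count was 0 with any 1 of Alb CT4 21% A and B, Alb CT4 6% C, Alb CT16 21% A, B and C and Alb CT16 6% A and C left out. A difference of these time effects between genotypes was not tested. In HLKO, 5 solute carriers were called in opposite directions at CT16 and CT4, and such calls were not counted over all tested genes. Slc22a5 (chromosome 11, 53864542 to 53891660), the carnitine transporter OCTN2, fell by 1.04 ± 0.23 at CT16 (14.5, 12.6 and 10.1 CPM under 6% and 24.9, 28 and 22.8 CPM under 21% oxygen, adjusted p = 0.00318). At CT4 it rose by 0.96 ± 0.24 (17.3, 18.7 and 16.4 CPM under 6% and 6.7, 8.87 and 10.9 CPM under 21% oxygen, adjusted p = 0.00502), and the responses differed by -2.01 ± 0.33 (adjusted p = 0.000184). The libraries did not overlap at either time, and the highest values were those of CT16 under 21% oxygen. Slc27a2, which takes up long-chain fatty acids and activates very long chain ones, was at 425, 571 and 509 CPM under 6% and 859.9, 782 and 613 CPM under 21% oxygen at CT16 (-0.58 ± 0.16). The Slc27a2 call in HLKO at CT16 was lost without HLKO CT16 21% A and B and HLKO CT16 6% A (highest adjusted p = 0.127). At CT4 Slc27a2 was at 673, 638 and 889.8 CPM under 6% and 421, 489.5 and 528 CPM under 21% oxygen (0.61 ± 0.16). The Slc27a2 call in HLKO at CT4 was lost without HLKO CT4 21% A and HLKO CT4 6% C (highest adjusted p = 0.0849). The difference of its responses (-1.19 ± 0.23, adjusted p = 0.000967) held without each library.

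Slc38a3 (chromosome 9, 107650634 to 107669530), the glutamine transporter SNAT3, went the other way: it rose by 0.72 ± 0.17 in HLKO at CT16 (2609, 2626 and 2547 CPM under 6% and 1599, 1364 and 1768 CPM under 21% oxygen, adjusted p = 0.00497). At CT4 it fell by 0.60 ± 0.17 (1863, 2070 and 1623 CPM under 6% and 3306, 2449 and 2695 CPM under 21% oxygen). The Slc38a3 call in HLKO at CT4 was lost without HLKO CT4 21% A and HLKO CT4 6% C (highest adjusted p = 0.0829). The difference between its responses was 1.32 ± 0.24 (adjusted p = 0.000437). Slc38a3 was called upward in 2 hypoxia comparisons, so its rise was not seen in HLKO at CT16 alone. Between HLKO and Alb its response was not called different at CT16 (0.10 ± 0.24, adjusted p = 0.943). At CT4 it was (-1.03 ± 0.24, adjusted p = 0.0242). Slc45a3, of a family of proton-coupled sugar carriers, was at 54.2, 69.6 and 75.4 CPM under 6% and 97.1, 99 and 132 CPM under 21% oxygen at CT16 (-0.71 ± 0.21). The Slc45a3 call in HLKO at CT16 was lost without HLKO CT16 21% C and HLKO CT16 6% A and B (highest adjusted p = 0.148). At CT4 Slc45a3 rose by 1.08 ± 0.23 (41, 38.7 and 66.5 CPM under 6% and 22.5, 27.9 and 17.5 CPM under 21% oxygen), with a difference of -1.79 ± 0.31 between the responses (adjusted p = 0.00035). The lowest HLKO libraries of Slc45a3 were those of CT4 under 21% oxygen and the highest those of CT16 under 21%. Slc25a34, a mitochondrial carrier, differed by -2.39 ± 0.53 (adjusted p = 0.0041). It was at 5.98 ± 2.05 CPM under 6% and 14.4 ± 2.7 CPM under 21% oxygen at CT16, and at 10.2 ± 2.95 CPM under 6% and 4.66 ± 0.528 CPM under 21% at CT4. It was called at CT16 (-1.25 ± 0.37) and at CT4 (1.14 ± 0.38). The Slc25a34 call in HLKO at CT16 was lost without HLKO CT16 21% A and B and HLKO CT16 6% A and C (highest adjusted p = 0.139). The Slc25a34 call in HLKO at CT4 was lost without HLKO CT4 21% A, B and C and HLKO CT4 6% A and C (highest adjusted p = 0.207). Slc66a2 (chromosome 18, 80253292 to 80292725), of the PQ-loop family, was at 167, 115 and 147 CPM under 6% and 64.3, 63.1 and 61 CPM under 21% oxygen at CT16 (1.18 ± 0.16, adjusted p = 3.85e-06). At CT4 its libraries overlapped, with 113, 124 and 139 CPM under 6% and 117, 142 and 153 CPM under 21% oxygen (-0.14 ± 0.15, adjusted p = 0.573), and the responses differed by 1.32 ± 0.22 (adjusted p = 0.000168).

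**Figure D3:**
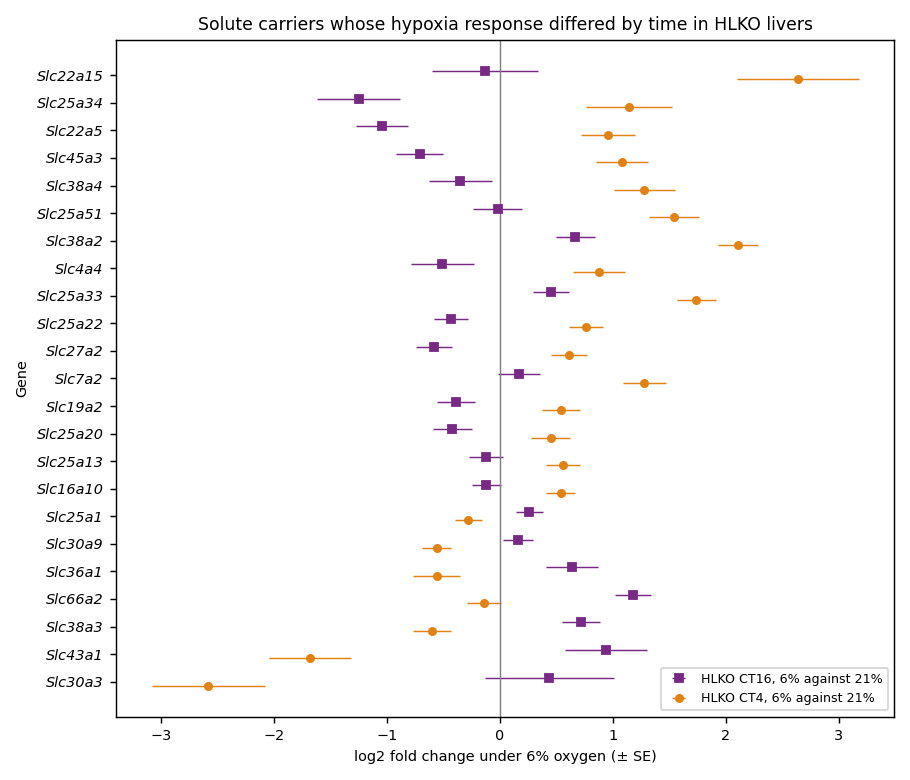
Log2 fold change ± SE (horizontal axis) under 6% against 21% oxygen in HLKO livers at CT16 (squares) and CT4 (circles) for the 23 solute carriers whose responses differed between the times. Slc38a2 was positive at both times (0.67 at CT16 and 2.11 at CT4), whereas Slc22a5 was -1.04 at CT16 and 0.96 at CT4.

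Several genes that rose with hypoxia differed in the size of the HLKO response. Slc38a2 responses differed by -1.44 ± 0.25 (adjusted p = 0.000261) between CT16 and CT4, those of Slc25a33 by -1.29 ± 0.23 (adjusted p = 0.000458), and those of Slc25a51 by -1.56 ± 0.31 (adjusted p = 0.0014). Slc7a2 (-1.11 ± 0.27), Slc38a4 (-1.64 ± 0.39) and the mitochondrial glutamate carrier Slc25a22 (-1.19 ± 0.21) also had the higher response at CT4. Each of these 6 calls held without any single library. The HLKO response was set against that of Alb directly. At CT16 the difference was called for 5 solute carriers, 1 positive and 4 negative (3.29% against 0.875% of all genes, 0.359% positive and 0.517% negative). Slc38a2 had the lower response in HLKO (0.67 ± 0.17 in HLKO and 2.03 ± 0.18 in Alb, difference -1.36 ± 0.25, adjusted p = 0.0037), as did Slc25a51 (-0.02 ± 0.22 in HLKO and 1.66 ± 0.22 in Alb, difference -1.68 ± 0.31, adjusted p = 0.00434). Slc66a2 had the higher response in HLKO (1.18 ± 0.16 in HLKO and 0.03 ± 0.15 in Alb, adjusted p = 0.00602). These 3 calls held without each library, but those of Slc25a51 (adjusted p = 0.0607) and Slc66a2 (adjusted p = 0.0552) were lost when only the groups compared entered the fit. At CT4 the difference was called for 7 solute carriers, 5 positive and 2 negative (4.61% against 1.58%, 0.991% positive and 0.591% negative). The carnitine transporter Slc22a5 was among them (0.96 ± 0.24 in HLKO and -0.65 ± 0.26 in Alb, difference 1.61 ± 0.35, adjusted p = 0.0187). The Slc22a5 call was lost without Alb CT4 21% B (highest adjusted p = 0.0768). For Slc43a1 (-1.68 ± 0.36 in HLKO and 0.70 ± 0.32 in Alb) the difference was -2.38 ± 0.48 (adjusted p = 0.0139). The Slc43a1 call was lost without Alb CT4 21% B (highest adjusted p = 0.0574). The CT16 count was 3 with any 1 of Alb CT16 21% A, Alb CT16 6% C, HLKO CT16 21% C and HLKO CT16 6% C left out and 8 with HLKO CT16 6% B left out, and the CT4 count was 0 with Alb CT4 21% B left out, 2 with HLKO CT4 21% A left out, 3 with HLKO CT4 6% A left out and 4 with any 1 of Alb CT4 6% A, B and C, HLKO CT4 21% B and C and HLKO CT4 6% C left out. Each of the 7 calls at CT4 was lost without at least 1 library. For BLKO against Alb, edgeR called 0 solute carriers at CT16 (0% against 0.116% of all genes, 0.0211% positive and 0.0949% negative), with 18 at an unadjusted p under 0.05 and 1 called by DESeq2. At CT4 it called Slc25a22 alone (0.658% against 0.19%, 0.0422% positive and 0.148% negative), which fell by 0.75 ± 0.15 in BLKO and was at 0.33 ± 0.15 in Alb (difference -1.08 ± 0.21, adjusted p = 0.0191). The Slc25a22 call was lost without Alb CT4 21% B and C, Alb CT4 6% B, BLKO CT4 21% B and BLKO CT4 6% A and C (highest adjusted p = 0.0924).

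The effect of genotype was read at 21% oxygen, where HLKO and BLKO were each set against the same Alb libraries. In BLKO livers edgeR called 18 solute carriers at CT16 (4 higher, 14 lower), 11.8% against 5.38% of all tested genes (2.14% higher, 3.24% lower). At CT4 it called 23 in BLKO (10 higher, 13 lower), 15.1% against 7.44% of all tested genes (3.78% higher, 3.67% lower). Leaving out single libraries gave at CT16 7 with BLKO CT16 21% B left out, 9 with Alb CT16 21% C left out and 11 with any 1 of Alb CT16 21% A and B and BLKO CT16 21% C left out. At CT4 it gave 13 with any 1 of BLKO CT4 21% B and C left out, 14 with any 1 of Alb CT4 21% B and BLKO CT4 21% A left out and 15 with Alb CT4 21% C left out. At both times Slc17a2, Slc25a20, Slc2a2, Slc2a5, Slc47a1 and Slc6a9 fell, and Slc20a2, Slc39a4 and Slc44a1 rose. Of these 9 genes, Slc47a1 alone kept its call at both times when any single library was left out. Slc25a20, Slc2a5 and Slc47a1 were also called lower, and Slc20a2 and Slc39a4 higher, in HLKO against the same Alb libraries. Calls in these directions were therefore not particular to BLKO, though all 12 BLKO libraries of Slc47a1 lay below all 12 HLKO libraries. Slc47a1 (chromosome 11, 61343401 to 61378345), the exporter MATE1 for organic cations, was at 15.8, 4.92 and 8.66 CPM in BLKO and 37.1, 42.3 and 70.7 CPM in Alb at CT16 (-2.3 ± 0.34, adjusted p = 2.79e-05). At CT4 it was at 9.81, 12.7 and 7.46 CPM in BLKO and 51.9, 62.4 and 45.4 CPM in Alb (-2.44 ± 0.37, adjusted p = 3.42e-05). Over both times and oxygen levels the 12 BLKO libraries lay between 4.11 and 15.8 CPM and the 12 Alb libraries between 18.4 and 70.7 CPM, without overlap. The 12 HLKO libraries lay between 20.4 and 50.1 CPM. The fructose transporter Slc2a5 (GLUT5) had 7 counts over the BLKO CT4 21% libraries and 75 over Alb CT4 21% (0.934, 1.23 and 0.597 CPM in BLKO and 9.18, 7.0 and 7.92 CPM in Alb, -3.12 ± 0.45, adjusted p = 1.37e-05). Slc2a5 passed the count filter only through groups where it was higher, so this p-value is no separate support for a fall. At CT16 Slc2a5 fell by 1.27 ± 0.36 in BLKO. The Slc2a5 call in BLKO at CT16 was lost without Alb CT16 21% A and B and BLKO CT16 21% B and C (highest adjusted p = 0.158). The glycine transporter Slc6a9 (chromosome 4, 117834506 to 117875198) was at 34.8, 26.6 and 21.9 CPM in BLKO and 48.1, 68.5 and 56.1 CPM in Alb at CT16 (-1.03 ± 0.19, adjusted p = 0.000645). It fell by 0.74 ± 0.20 in BLKO at CT4. The Slc6a9 call in BLKO at CT4 was lost without Alb CT4 21% C and BLKO CT4 21% A (highest adjusted p = 0.105).

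GLUT2, encoded by Slc2a2, was at 105, 97.7 and 126 CPM in BLKO and 155, 231 and 210.2 CPM in Alb livers at CT4 (-0.85 ± 0.18, adjusted p = 0.00244). In the CT16 comparison Slc2a2 fell by 0.69 ± 0.18. The Slc2a2 call in BLKO at CT16 was lost without Alb CT16 21% B and C and BLKO CT16 21% A (highest adjusted p = 0.121). Slc17a2, of a family of phosphate and organic anion carriers, fell by 0.90 ± 0.21 in BLKO at CT4 (adjusted p = 0.00494), and the carnitine-acylcarnitine carrier Slc25a20 fell by 0.76 ± 0.17 at CT16. The Slc25a20 call in BLKO at CT16 was lost without BLKO CT16 21% B (highest adjusted p = 0.0544). At CT4 the potassium-chloride cotransporter Slc12a7 fell by 1.21 ± 0.19 in BLKO (19.6, 22.5 and 21.5 CPM in BLKO and 41.6, 53.9 and 52.1 CPM in Alb, adjusted p = 5.63e-05), and Slc66a2 fell by 0.94 ± 0.16 (adjusted p = 0.000115). In the same comparison the mitochondrial glutamate carrier Slc25a22 rose by 0.78 ± 0.15 (396, 597 and 453 CPM in BLKO and 304, 249 and 288 CPM in Alb, adjusted p = 0.000738). At CT16 Slc25a47 fell by 0.94 ± 0.13 in BLKO (adjusted p = 8.79e-06) and the carnitine transporter Slc22a5 fell by 1.09 ± 0.23 (8.1, 6.37 and 8.95 CPM in BLKO and 15.8, 16.5 and 17.8 CPM in Alb, adjusted p = 0.00269). Of the 16 tested carriers of organic ions and drugs 4 fell and 0 rose at CT16, and 3 fell and 1 rose at CT4. Of all tested genes, 3.24% were called lower and 2.14% higher at CT16, and 3.67% and 3.78% at CT4. Slc10a2, the apical bile acid transporter, had 6 counts over BLKO CT4 21% and 52 over Alb CT4 21% (adjusted p = 0.00859). It passed the count filter only through groups where it was higher, so this p-value is no separate support for a fall. The Slc10a2 call in BLKO at CT4 was lost without BLKO CT4 21% C (highest adjusted p = 0.0585). Cela1, an elastase listed as a pancreas marker, was higher in BLKO at both times (1.90 at CT16 and 1.94 at CT4 on the log2 scale), and is the 1 pancreas marker of 5 listed that was analysed. The hepatocyte sum was 68400 to 69800 CPM in BLKO and 81100 to 97100 CPM in Alb at CT16. At CT4 the endothelial sum was 168 to 191 CPM in BLKO and 122 to 161 CPM in Alb, and Alas2, the 1 red cell marker of 5 listed that was analysed, was at 137 to 150 CPM in BLKO and 165 to 219 CPM in Alb. The link of these genes to the carriers was not tested.

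In HLKO livers edgeR called 10 solute carriers against Alb at CT16 (9 higher, 1 lower), 6.58% against 3.56% of all tested genes (2.06% higher, 1.51% lower). At CT4 18 were called in HLKO (6 higher, 12 lower), 11.8% against 9.71% of all tested genes (4.1% higher, 5.61% lower). Leaving out single libraries gave 6 with any 1 of Alb CT16 21% A and HLKO CT16 21% C left out at CT16. For CT4 it gave 4 with Alb CT4 21% B left out, 6 with HLKO CT4 21% A left out, 8 with HLKO CT4 21% C left out and 11 with HLKO CT4 21% B left out. Slc39a4 (chromosome 15, 76612383 to 76617384), the zinc importer ZIP4, was called at both times. It was at 167, 133 and 229 CPM in HLKO and 58.7, 59.9 and 71.6 CPM in Alb at CT16 (1.47 ± 0.26, adjusted p = 0.000661), with no overlap. At CT4 it was at 180, 114 and 163 CPM in HLKO and 117, 57.3 and 68.5 CPM in Alb (0.91 ± 0.26, adjusted p = 0.0236), where the groups overlapped. The Slc39a4 call in HLKO at CT4 was lost without Alb CT4 21% B and C and HLKO CT4 21% A and C (highest adjusted p = 0.157). In BLKO livers, set against the same Alb libraries, Slc39a4 was at 95.9, 164 and 128 CPM at CT16 (1.02 ± 0.26) and at 143, 140.2 and 149 CPM at CT4 (0.84 ± 0.26). The Slc39a4 call in BLKO at CT16 was lost without Alb CT16 21% A and B and BLKO CT16 21% B (highest adjusted p = 0.116). The Slc39a4 call in BLKO at CT4 was lost without Alb CT4 21% B and C and BLKO CT4 21% A, B and C (highest adjusted p = 0.248). At CT16 4 mitochondrial carriers were higher in HLKO and 0 lower: Slc25a51 (104, 96.9 and 94.1 CPM in HLKO and 35.7, 41.9 and 48.5 CPM in Alb, 1.22 ± 0.22), Slc25a33 (0.90 ± 0.17), Slc25a22 (0.85 ± 0.15) and Slc25a47 (0.61 ± 0.13). The highest adjusted p of these 4 was 0.00501 for Slc25a47. The Slc25a47 call in HLKO at CT16 was lost without Alb CT16 21% A (highest adjusted p = 0.0653). Slc38a2 also rose by 0.89 ± 0.18 in HLKO at CT16 (adjusted p = 0.00261). At CT4 the aspartate-glutamate carrier Slc25a13 fell by 0.80 ± 0.15 in HLKO (62.7, 62.7 and 65.3 CPM in HLKO and 104, 132 and 96.3 CPM in Alb, adjusted p = 0.00168). The bicarbonate cotransporter Slc4a4 fell by 1.05 ± 0.23 (adjusted p = 0.00499), while Slc30a9, of the zinc transporter family SLC30, rose by 0.60 ± 0.13 (adjusted p = 0.00425). Alas2 was at 64.0 to 69.6 CPM in HLKO and 165 to 219 CPM in Alb at CT4 and 21% oxygen. Cela1 was higher in HLKO than in Alb by 0.65 at CT16 and 1.07 at CT4 on the log2 scale, and at CT16 the list of stellate cells and fibroblasts had 1 higher gene of 9, with sums of 369 to 438 CPM in HLKO and 223 to 297 CPM in Alb. At CT4 the bile duct sum was 35 to 40.9 CPM in HLKO and 52.1 to 74.1 CPM in Alb. A link of these markers to the carriers was not tested either.

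**Figure D4:**
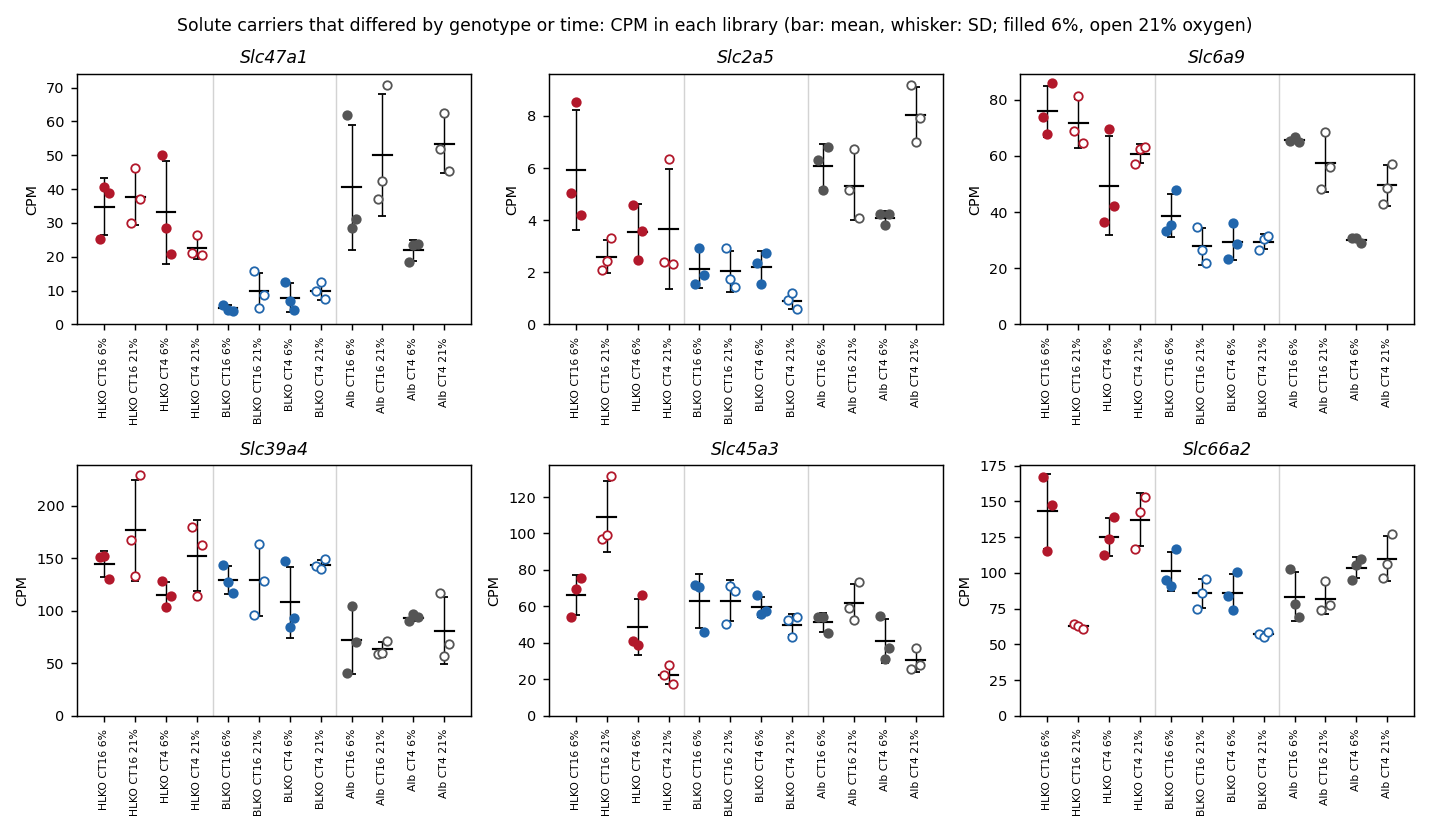
CPM (vertical axes) of 6 solute carriers in each of the 36 libraries, by group, with the mean (bar) and SD (whisker); filled points breathed 6% and open points 21% oxygen. Slc47a1 was lower in the BLKO libraries than in the Alb libraries at both times and oxygen levels, and Slc45a3 was highest in HLKO at CT16 under 21% oxygen (97.1, 99.0 and 132 CPM).

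The comparison of times used the 21% oxygen libraries that also enter the hypoxia and genotype comparisons above, so its calls are not independent of those. Between CT16 and CT4 at 21% oxygen, most called solute carriers came from HLKO livers. There edgeR called 33 (23 higher, 10 lower at CT16), 21.7% against 11.9% of all tested genes (6.57% higher, 5.29% lower). In BLKO it called 5 (1 higher, 4 lower), 3.29% against 2.19% of all tested genes (0.854% higher, 1.34% lower). In Alb it called 2 (1 higher, 1 lower), 1.32% against 1.27% of all tested genes (0.707% higher, 0.559% lower). In HLKO 10 of 30 tested mitochondrial carriers rose and 1 fell at CT16 (median 0.23, all genes 0.00). Slc45a3 (chromosome 1, 131962967 to 131982969) was at 97.1, 99 and 132 CPM at CT16 and 22.5, 27.9 and 17.5 CPM at CT4 in HLKO (2.27 ± 0.23, adjusted p = 2.34e-08), without overlap. In Alb livers Slc45a3 rose by 1.02 ± 0.22 (59.1, 52.8 and 73.2 CPM at CT16 and 25.8, 37.5 and 28 CPM at CT4). The Slc45a3 call in Alb was lost without Alb CT4 21% A and C and Alb CT16 21% C (highest adjusted p = 0.112). The carnitine transporter Slc22a5 rose by 1.49 ± 0.24 in HLKO (24.9, 28 and 22.8 CPM at CT16 and 6.7, 8.87 and 10.9 CPM at CT4, adjusted p = 4.34e-05). Slc25a33 rose by 1.41 ± 0.17 (adjusted p = 5.32e-07), Slc25a51 rose by 1.23 ± 0.23 (adjusted p = 0.000315), and the coenzyme A carrier Slc25a42 rose by 0.68 ± 0.15 (adjusted p = 0.003). Downward, Slc66a2 was at 64.3, 63.1 and 61 CPM at CT16 and 117, 142 and 153 CPM at CT4 (-1.13 ± 0.16, adjusted p = 5.74e-06), and the glutamine transporter Slc38a3 fell by 0.84 ± 0.17 (adjusted p = 0.00093). In BLKO livers Slc25a47 fell by 0.89 ± 0.13 (369, 346 and 375 CPM at CT16 and 673, 639 and 712 CPM at CT4, adjusted p = 0.000112) and Slc25a22 fell by 0.82 ± 0.15 (adjusted p = 0.0019). The other 3 called in BLKO were Slc66a2, Slc4a4 and Slc37a1, each lost without at least 1 library, and the other one in Alb was Slc41a1. The Slc41a1 call in Alb was lost without Alb CT4 21% A and Alb CT16 21% A, B and C (highest adjusted p = 0.227). The BLKO count was 2 with any 1 of BLKO CT4 21% A and BLKO CT16 21% B and C left out and 3 with any 1 of BLKO CT4 21% B and C left out. The Alb count was 0 with any 1 of Alb CT4 21% A and Alb CT16 21% C left out and 1 with any 1 of Alb CT16 21% A and B left out.

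A direct test of the time effect between genotypes called 6 solute carriers in HLKO against Alb, all positive (3.95% against 0.939% of all genes, 0.496% positive and 0.443% negative), and 2 in BLKO against Alb (1.32% against 0.749%, 0.306% positive and 0.443% negative). For HLKO against Alb these were Slc25a51 (difference 1.45 ± 0.32, adjusted p = 0.0179), Slc25a22 (1.01 ± 0.21, adjusted p = 0.0124), Slc25a33 (1.06 ± 0.24), Slc38a2 (1.06 ± 0.25), Slc45a3 (1.24 ± 0.32) and Slc25a47 (0.74 ± 0.18). For BLKO they were Slc66a2 (1.01 ± 0.22) and Slc25a47 (-0.78 ± 0.18). The HLKO count was 0 with Alb CT16 21% A left out, 2 with HLKO CT4 21% C left out and 3 with any 1 of Alb CT4 21% B, Alb CT16 21% B, HLKO CT4 21% A and HLKO CT16 21% A and B left out. The BLKO count was 0 with any 1 of Alb CT4 21% C and Alb CT16 21% C left out and 1 with any 1 of Alb CT4 21% A and B, Alb CT16 21% A, BLKO CT4 21% A, B and C and BLKO CT16 21% A, B and C left out, and each of these 8 calls was lost without at least 1 library. In HLKO at 21% oxygen other cells differed between the times too. Alas2 was at 70.4, 296 and 316 CPM in the HLKO libraries at CT16, in ascending order, and at 64.0 to 69.6 CPM at CT4. Of 9 tested stellate cell and fibroblast markers out of 10 listed, 2 were higher at CT16 (median 0.61), with sums of 369 to 438 CPM at CT16 and 215 to 273 CPM at CT4, and 1 of 9 endothelial markers was higher, with sums of 186 to 230 CPM at CT16 and 153 to 156 CPM at CT4. In Alb at 21% oxygen the hepatocyte sum was 81100 to 97100 CPM at CT16 and 66700 to 79700 CPM at CT4, and the endothelial sum was 167 to 192 CPM at CT16 and 122 to 161 CPM at CT4. Their part in the carrier differences was not tested.

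**Figure D5:**
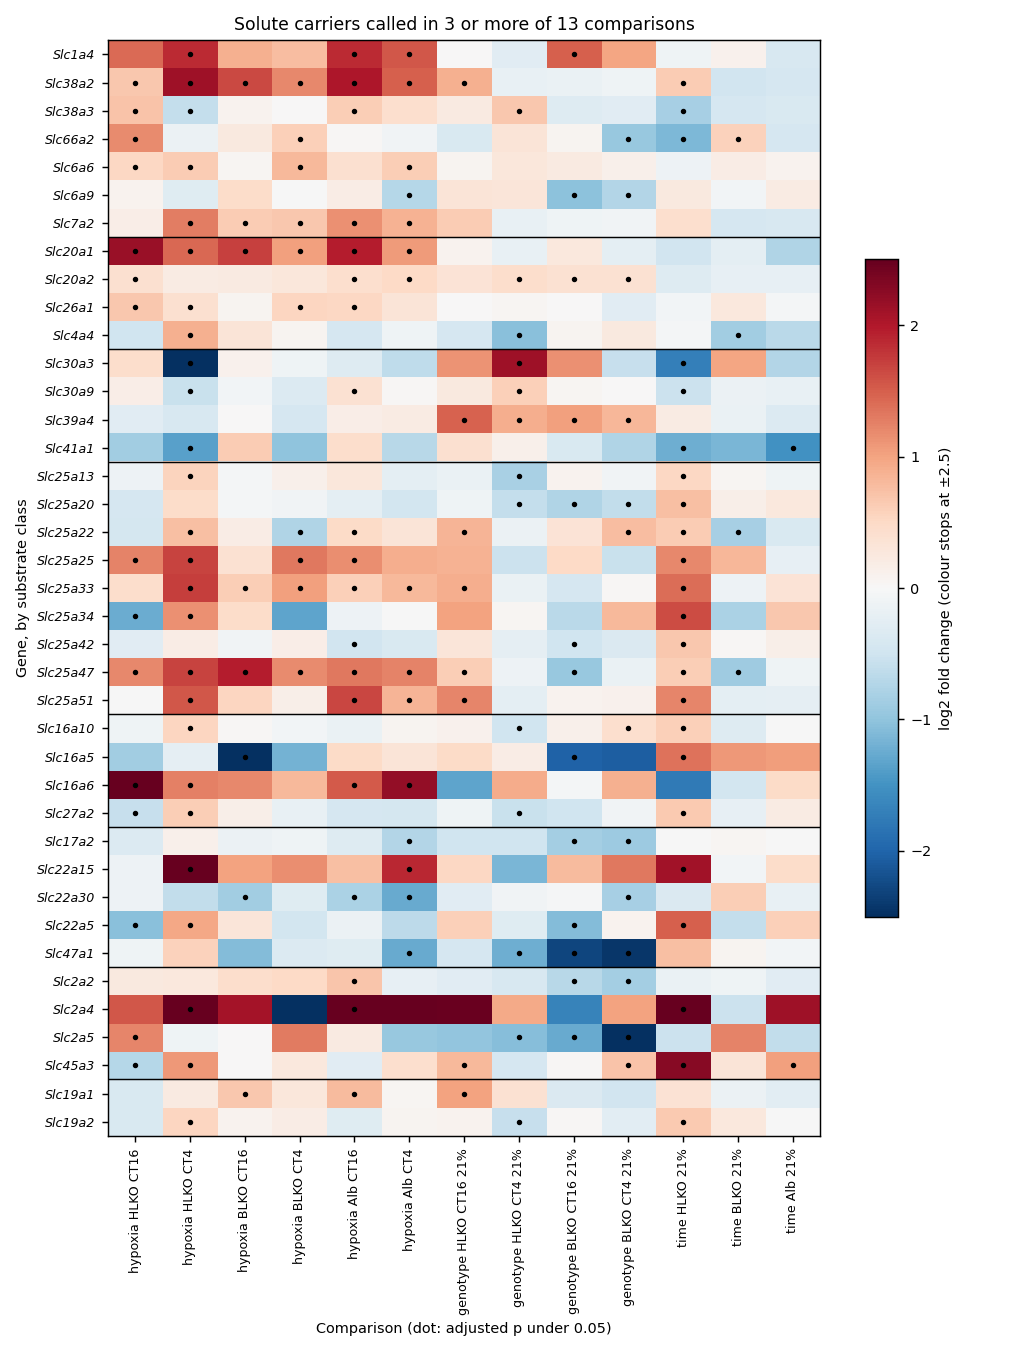
Log2 fold change (colour, red higher and blue lower, stopping at ±2.5) of 39 of the 40 solute carriers called in 3 or more of the 13 comparisons of 2 groups, grouped by substrate class, with a dot where the gene was called. The rows of Slc38a2, Slc25a47 and Slc20a1 carry a dot in all 6 hypoxia columns.

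Transport genes outside the named families were described in the same way. Of 34 such genes 29 were tested, among them ABC exporters, organic anion transporters of the SLCO family and the mitochondrial pyruvate carrier subunits Mpc1 and Mpc2. Under 6% oxygen 2 rose and 1 fell in HLKO at CT16, 7 rose and 1 fell in HLKO at CT4, 2 rose and 0 fell in BLKO at each time, 4 rose and 0 fell in Alb at CT16, and 2 rose and 1 fell in Alb at CT4. Of all tested genes, 5.4% were called higher and 4.34% lower in HLKO at CT16, and 7.71% and 6.72% at CT4. In BLKO these shares were 4.77% and 4.63% at CT16 and 2.57% and 2.06% at CT4. In Alb they were 6.72% and 6.76% at CT16 and 5.28% and 3.88% at CT4. Abcg5, a subunit of the sterol exporter of the canalicular membrane, was called upward in all 6 comparisons, with changes from 0.65 ± 0.20 in HLKO at CT16 (adjusted p = 0.038) to 1.16 ± 0.21 in Alb at CT16 (adjusted p = 0.000158). Mfsd2a, a transporter of lysophospholipids that carry polyunsaturated fatty acids, rose by 2.76 ± 0.35 in HLKO at CT4 and by 1.97 ± 0.33 in Alb at CT16. At 21% oxygen Mfsd2a fell by 1.39 ± 0.33 in BLKO at CT16 (adjusted p = 0.00846) and by 1.56 ± 0.35 at CT4 (adjusted p = 0.00324), and it fell by 1.5 ± 0.34 in HLKO at CT4 (adjusted p = 0.00636). The median change of the 29 genes lay between -0.05 and 0.31 in the hypoxia comparisons.

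Of the 152 tested solute carriers, 93 were called in at least 1 of the 22 comparisons (61.2% against 45.9% of all tested genes), and 92 in at least 1 of the 13 that set 2 groups against each other (60.5% against 45.2%). These 13 held 240 calls, and in 234 of them the libraries of the 2 groups did not overlap (97.5%), a share near the 96.1% found for the 9697 calls over all tested genes. Abundant carriers were also among those not called. The mitochondrial phosphate carrier Slc25a3 lay between 368.8 and 536.5 CPM in all 36 libraries.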

How the data were processed

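Liver RNA of 36 mouse samples in 12 groups was used, and 3 further samples lacking Hif1a and Bmal1 together are not analysed here. The deposited table holds raw counts per gene symbol. Per the submitters' processing notes, cutadapt, STAR 2.4.2a, HTSeq, DESeq2 and the build mm10 were used. Strand, library type, molecular identifiers and any filter on the table are not given in the sources used here. A second set of deposited columns holds a normalized signal that equals the raw counts times 1 constant per library, and was not used.

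Counts of all gene symbols were fitted together over the 36 libraries with edgeR 4.0.16 (R 4.3.3, limma 3.58.1; quasi-likelihood test, TMM scaling, filterByExpr with a count minimum of 10), leaving 9483 genes. Slc2a4, Slc22a15, Slc16a5, Slc2a5, Slc10a2, Slc37a1, Slc22a3, Slc7a5 and Slc22a28 had fewer than 10 counts over a compared group. They passed the filter only through groups where they were higher, and Slc30a3 mainly through HLKO CT4 21%. The p-values of these genes in comparisons with such groups are no separate support for a change. P-values were adjusted by the Benjamini-Hochberg method within each of 22 comparisons, and a call needed an adjusted p under 0.05. The SE is the size of the log2 fold change divided by the square root of F. Interaction terms gave the differences between responses. Alternatives were DESeq2 1.42.0, RLE scaling, no low-count filter, the replicate letter as a block, only the compared groups, and each library left out. The letters paired the libraries in 0 of 13 comparisons. Tables and figures used Python 3.11.15, pandas 2.3.3 and matplotlib 3.10.9.

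Members, substrate classes, marker lists and tests were chosen with earlier results of these data known. Substrate classes follow the family number alone, so a member may carry another substrate than its class names. Slc66a2, which rose in HLKO at CT16, and Slc43a3 were counted among amino acid and peptide carriers, and Slc5a6 among sugar carriers. Named genes are up to 12 called members with the highest and 12 with the lowest change per comparison at a group mean of at least 5 CPM, the 20 most abundant per length, up to 4 per class, and members whose difference between groups or family bears on these. The text leaves some out, and some results are not reported here. Gene positions, exon lengths and overlaps come from GENCODE M21 and promoters from RefSeq, both on GRCm38, the assembly of mm10.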

Additional observations from a re-analysis of the deposited data

Results flagged for a closer look

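47 differences between groups were called by a test of the difference itself, an interaction term in the edgeR fit (adjusted p under 0.05). All values here are differences of log2 fold changes, and the text on HLKO, BLKO and Alb above gives the responses behind some of them. In HLKO livers the response to 6% oxygen at CT16 exceeded that at CT4 for Slc25a1 (0.54), Slc30a9 (0.72), Slc36a1 (1.2), Slc66a2 (1.32), Slc38a3 (1.32), Slc43a1 (2.62) and Slc30a3 (3.02). It was below that at CT4 for Slc22a15 (-2.77), Slc25a34 (-2.39), Slc22a5 (-2.01), Slc45a3 (-1.79), Slc38a4 (-1.64), Slc25a51 (-1.56), Slc38a2 (-1.44), Slc4a4 (-1.39), Slc25a33 (-1.29), Slc25a22 (-1.19), Slc27a2 (-1.19), Slc7a2 (-1.11), Slc19a2 (-0.93), Slc25a20 (-0.87), Slc25a13 (-0.69) and Slc16a10 (-0.65).

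In BLKO livers the response at CT16 exceeded that at CT4 for Slc25a47 (0.79) and Slc25a22 (0.94). In Alb livers it was below that at CT4 for Slc7a8 (-3.07). At CT16 the hypoxia response of HLKO exceeded that of Alb for Slc66a2 (1.15) and was below it for Slc25a51 (-1.68), Slc38a2 (-1.36), Slc19a1 (-1.19) and Slc25a22 (-0.91). At CT4 it exceeded that of Alb for Slc25a13 (0.82), Slc25a33 (0.93), Slc27a2 (1.05), Slc22a5 (1.61) and Slc47a1 (1.84) and was below it for Slc43a1 (-2.38) and Slc38a3 (-1.03). The BLKO response was below that of Alb at CT4 for Slc25a22 (-1.08).

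At 21% oxygen the difference between CT16 and CT4 was higher in HLKO than in Alb for Slc25a47 (0.74), Slc25a22 (1.01), Slc25a33 (1.06), Slc38a2 (1.06), Slc45a3 (1.24) and Slc25a51 (1.45). In BLKO it was higher than in Alb for Slc66a2 (1.01) and lower for Slc25a47 (-0.78). The comparisons of HLKO and BLKO with Alb share the Alb libraries. Comparisons within a genotype share libraries too. The HLKO CT16 21% libraries enter the CT16 comparisons of hypoxia and genotype, the comparison of times, and the interaction terms built on these. Calls of 1 gene in several of them, such as Slc25a51, Slc38a2 and Slc25a22, are therefore not independent results.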

How the results depend on the processing

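Counts of called solute carriers under each other setting stayed within 1.5 times the reported ones except as follows. With only the groups compared in the fit, hypoxia in Alb at CT4 gave 14 calls, time in Alb 1, hypoxia by time 0 in Alb and 1 in BLKO, and hypoxia by genotype 1 for HLKO at CT16 and 0 for BLKO at CT4. DESeq2 gave 0 for hypoxia by time in Alb, and 2 at CT4 and 1 at CT16 for hypoxia by genotype in BLKO. The cause was not tested, though a fit on fewer groups rests on fewer libraries. Of 287 single calls 0 changed direction under any setting, 112 held without each single library and 109 also under every other setting. DESeq2 lost 20 of 282 calls, RLE normalization 6 of 287, no low-count filter 18 of 287, and the compared groups only 54 of 272. Calls of genes without an adjusted p under a setting were left out of all these counts for that setting, and not counted as lost.

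With the replicate block (the letters A, B and C) the hypoxia counts were 19 and 34 for HLKO, 12 and 14 for BLKO, and 28 and 21 for Alb at CT16 and CT4. The letters did not pair the libraries: in 0 of 13 comparisons were all 3 correlations of same-letter deviations over 0.1, and the block lost 14 calls.

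Without single libraries the counts for hypoxia ran from 11 to 18 in HLKO at CT16 and 26 to 36 at CT4, from 6 to 11 in BLKO at either time, from 17 to 30 in Alb at CT16 and from 13 to 21 at CT4. For genotype they ran from 6 to 10 and 4 to 17 in HLKO at CT16 and CT4, and from 7 to 13 and 13 to 16 in BLKO. For time they ran from 22 to 27 in HLKO, 2 to 5 in BLKO and 0 to 2 in Alb. For hypoxia by time they ran from 18 to 32 in HLKO, 0 to 2 in BLKO and 0 to 1 in Alb. For hypoxia by genotype they ran from 3 to 8 and 0 to 9 in HLKO at CT16 and CT4, and from 0 to 1 and 0 to 2 in BLKO. For time by genotype they ran from 0 to 5 in HLKO and 0 to 2 in BLKO.

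With 3 libraries a group and totals as low as 1717589 counts, 46 of 198 solute carriers had too few counts for the test, and a member not called is not shown to be unchanged.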
